A study of Mus musculus with 6 samples.

Results

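The Slc25 family holds the mitochondrial carriers, and its members were taken from the table of normalized read counts as every gene whose symbol is Slc25a followed by a number. This gave 48 genes of the 41255 listed, namely 47 protein-coding genes and the pseudogene Slc25a5-ps. Of these, 39 averaged 10 normalized counts or more across the 6 libraries and were tested, and 9 were not.

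Mitochondrial carriers are small proteins, nearly all of the inner mitochondrial membrane, built from repeats of a pair of membrane-spanning helices. They exchange nucleotides, phosphate, amino acids, carboxylates and cofactors between the cytosol and the matrix, and so link oxidative phosphorylation, heme and iron-sulfur cluster synthesis and one-carbon metabolism to the rest of the cell. They are made in the cytosol from nuclear genes and are inserted by an import pathway of their own.

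The RPL10 R98S mutation, found in T-cell acute lymphoblastic leukemia, replaces an arginine of a large-subunit ribosomal protein by serine. Libraries of total mRNA came from Ba/F3, an interleukin-3 dependent lymphoid line of the mouse, carrying a retroviral human RPL10 cDNA in its WT form (clones 28, 29 and 36) or its R98S form (clones 11, 13 and 35). In all 6 cultures a short hairpin RNA was directed against the endogenous mouse Rpl10, and cycloheximide, a translation inhibitor, was present at 100 µg/ml for 5 min before harvest. Each culture was grown from 1 cell and gave 1 library, with 21786776 to 24204991 reads counted on genes. Thus n = 3 clones per group throughout, and p-values set the group difference against the spread between clones. In the limma fit used below, the estimate of that spread borrows from all genes tested. Values by clone are listed in the order of the clone numbers just given.

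The cells were checked against marker genes of the line. Of 11 genes for an interleukin-3 dependent pro-B line, 8 exceeded 3 reads in a library, among them the interleukin-3 receptor genes, while Pax5 and Rag1 were among those that stayed at 3 reads or fewer. The summed normalized count of this list was 103200 to 122300 in WT and 138600 to 163800 in R98S clones, most of it from Csf2rb and Csf2rb2. Within the list these and Cd79b were higher in R98S clones (log2 fold changes 0.53, 0.62 and 1.22, adjusted p by limma 0.0509, 0.0178 and 0.0617), while Ptprc, the gene of CD45, was lower (-1.33, adjusted p = 0.00894). The summed markers of other lineages were far lower, at 14.0 to 65.1 in WT and 47.0 to 92.9 in R98S clones for 5 T cell genes, 209 to 687 and 372 to 587 for 4 erythroid genes, and 43.0 to 130.0 and 48.0 to 397 for 7 mast cell and myeloid genes. The lists hold different genes, so these sums cannot tell the lineages apart. The T cell gene Cd3d was higher in R98S clones, with a mean of 13.3 in WT and 63.8 in R98S (2.17, adjusted p by limma = 0.0112). Cd3g, too weak to test, had 3.07, 3.22 and 43.0 normalized counts in WT and 0.94, 1.02 and 1.85 in R98S clones. The erythroid gene Hba-a1 was lower (-3.52, adjusted p = 0.0389), at 29.7, 8.60 and 69.05 in WT and 0, 6.12 and 0.93 in R98S clones. Klf1, with more counts than Hba-a1 in every clone, did not pass (0.42, adjusted p = 0.508). Cd3e, Cd4, Kit, Elane and Fcer1a had 3 reads or fewer in every library, and the part of any of these markers in the results was not tested.

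The share of the counted reads taken by the family did not separate the groups. Its members drew 0.307%, 0.305% and 0.300% of the reads in the WT clones and 0.298%, 0.303% and 0.307% in the R98S clones, or 0.304% ± 0.00347 against 0.303% ± 0.00471 (mean ± SD, n = 3 each). The groups overlapped. Slc25a5, Slc25a3 and Slc25a4 alone made up 41.6% to 44.8% of the family's normalized counts in the 6 libraries.

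Between genes, levels were compared as normalized counts per kilobase of exon, which ran from 4.53 for Slc25a34 to 9040 for Slc25a5 among the 39 tested members. The highest was Slc25a5, the ADP/ATP carrier of proliferating cells, followed by Slc25a4, the ADP/ATP carrier best known from heart and muscle, at 2020, Slc25a3, the phosphate carrier, at 1900, Slc25a39, a glutathione carrier, at 1610, and Slc25a11, the oxoglutarate/malate carrier, at 1520. These are means over the 6 clones. Exon length was that of all annotated exons of a gene merged, so the order depends on the annotation as well as on the counts. Slc25a3 had 5550 bases and a mean normalized count of 10540, against 2353 bases and 4751 for Slc25a4.

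**Figure D1:**
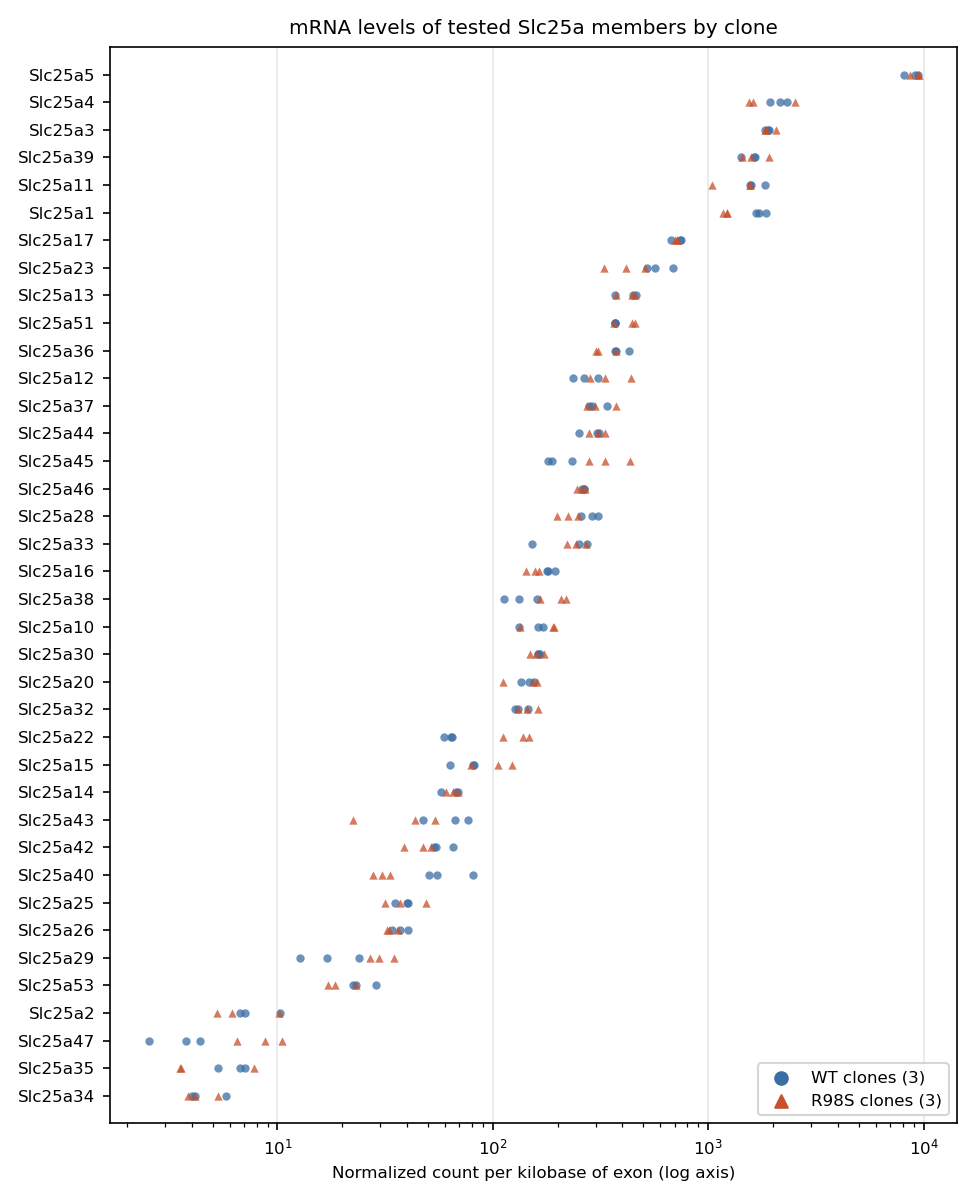
Normalized count per kilobase of exon, on a log axis, for 38 of the 39 tested Slc25a members, 1 point per clone coloured by group. Levels run from 4.53 for Slc25a34 to 9040 for Slc25a5, and for most members the WT and R98S points lie among each other.

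Slc25a5 had normalized counts of 15580, 14970 and 13320 in the WT clones and 15590, 14300 and 15490 in the R98S clones. Slc25a3 had 10630, 10520 and 10150 in the WT clones and 10250, 10230 and 11470 in the R98S clones. Both carriers serve ATP synthesis, one bringing in ADP and the other phosphate, and their groups overlapped. The log2 fold change of R98S over WT was 0.05 (SE 0.107, adjusted p by limma = 0.779) for Slc25a5 and 0.03 (SE 0.098, adjusted p = 0.874) for Slc25a3.

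Slc25a4 read 5083, 5454 and 4569 in the WT clones and 3805, 5941 and 3651 in the R98S clones, so that R98S clone 13 was the highest of all 6 and the other two R98S clones the lowest. Its log2 fold change was -0.21 (SE 0.187, adjusted p by limma = 0.484). Without R98S clone 13 it was -0.43 with an adjusted p of 0.0407. The 30 tested genes nearest to Slc25a4 on chromosome 8 had a median shift of -0.44 between the groups, and after that shift was removed the difference of Slc25a4 was 0.23 (adjusted p = 0.264).

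Slc25a39 had 4488, 4526 and 3905 in the WT clones and 3967, 5305 and 4358 in the R98S clones. Slc25a11, which moves malate for the malate-aspartate shuttle, had 3367, 3309 and 3875 in the WT clones and 2198, 3323 and 3317 in the R98S clones. The groups overlapped for both, with R98S clone 11 standing low for Slc25a11. The log2 fold changes were 0.07 (SE 0.132, adjusted p by limma = 0.752) and -0.28 (SE 0.172, adjusted p = 0.304). Slc25a11 shares 189 exonic bases with Rnf167 on the opposite strand, and whether the counting used strand was not given.

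The members not tested were weak or silent. Of these, 6 genes stayed at 3 reads or fewer in every library, which is a normalized count of 2.78 to 3.22, and were taken as not distinguishable from 0 at this depth. They were Slc25a31, the testis ADP/ATP carrier, with 0 reads, Slc25a27, an uncoupling-like protein known from brain, and Slc25a54 with at most 1 read, Slc25a48 with at most 2, and Slc25a21, the oxoadipate carrier, and Slc25a24, a calcium-regulated ATP-Mg/phosphate carrier, with at most 3. Slc25a18, the second glutamate carrier, reached 12 reads, Slc25a41, a calcium-independent ATP-Mg/phosphate carrier, 6 reads, and Slc25a5-ps 4 reads. Slc25a18 read 1.02, 2.15 and 4.003 normalized counts in the WT clones and 9.38, 4.08 and 11.1 in the R98S clones. These 3 had too few reads for a test.

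Comparing R98S with WT, 7 of the 39 tested members (17.9%) had a limma adjusted p under 0.1, the false discovery rate used in the study, against 23.9% of the 11550 genes tested. Slc25a22, Slc25a45, Slc25a38 and Slc25a47 were higher in R98S cells, beside a background of 10.7% of genes called higher. Slc25a40, Slc25a1 and Slc25a23 were lower, beside a background of 13.1% called lower. The groups did not overlap for 12 of the 39 members (30.8%), against 37.3% of all genes. The share of members called was thus not above that of genes in general.

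The median log2 fold change was -0.01 over the 39 members and -0.01 over all genes tested, and the median of its absolute value was 0.21 against 0.27. It was positive for 19 members and negative for 20. Of the 39 members, 3 were past the threshold with at least a 2-fold change, against 772 of the 11550 genes tested. These were Slc25a22, Slc25a47 and Slc25a40. The median coefficient of variation between clones was 10.1% in WT and 14.1% in R98S for the members and 11.0% and 14.0% for all genes. Fold changes were fitted on log2(normalized count + 1), which understates the change of weak genes.

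**Figure D2:**
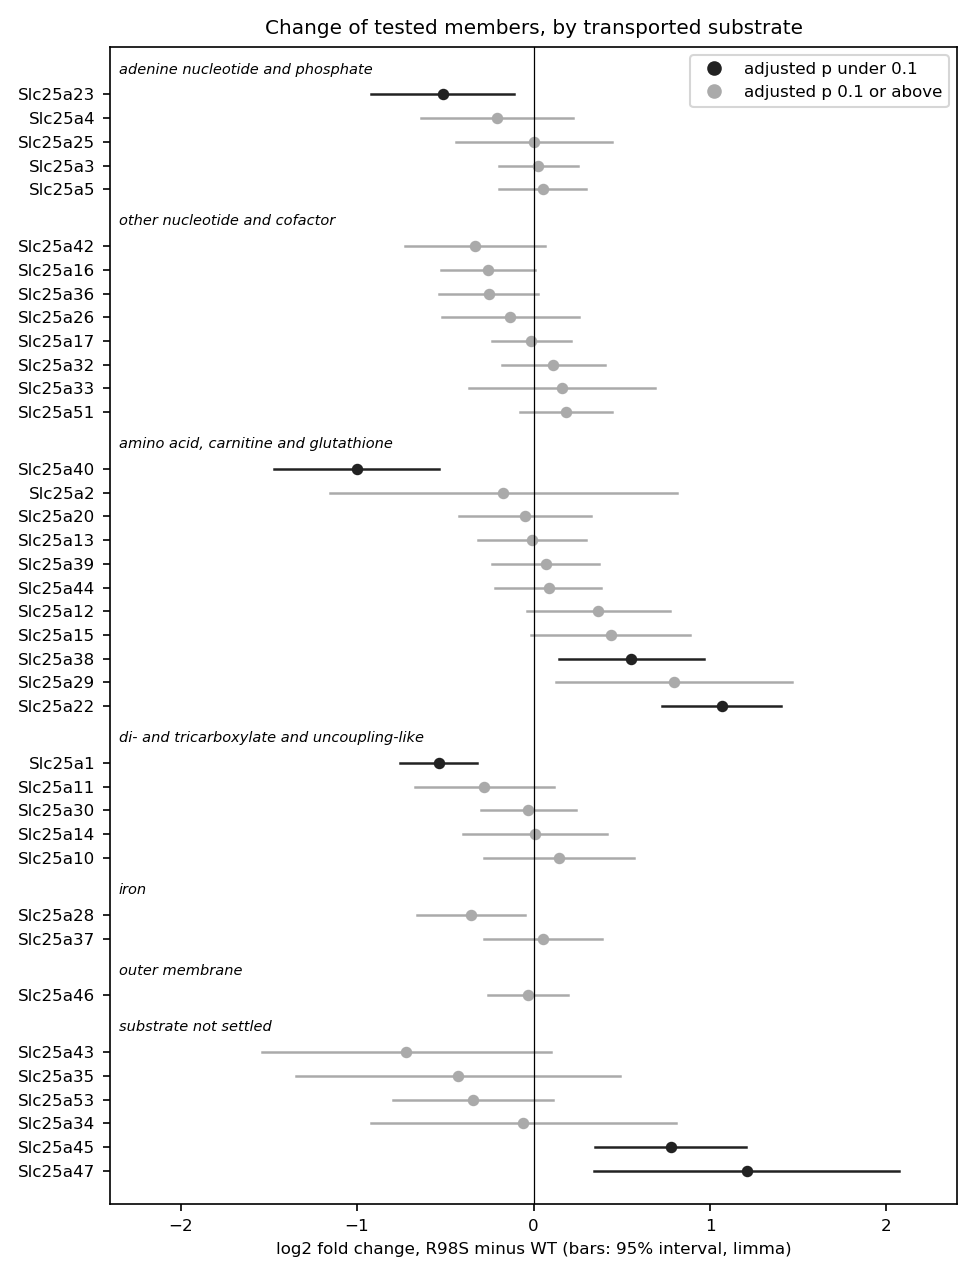
Log2 fold change of R98S over WT for 38 of the 39 tested members, grouped by transported substrate, with 95% intervals from limma. Black points mark the 7 members with an adjusted p under 0.1, among them Slc25a22 at 1.07 and Slc25a40 at -1.003, and most other points lie near 0.

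Among the 11 tested carriers of amino acids, carnitine and glutathione, 2 rose, 1 fell and 8 did not pass the test. The called share was 27.3%, beside 23.9% of all genes tested, and the median log2 fold change was 0.09. Slc25a22 encodes glutamate carrier 1, which brings glutamate into the matrix together with a proton, and lies on chromosome 7 (141429744 to 141437892, minus strand, mm10). It had 385, 356 and 385 normalized counts in the WT clones and 883, 665 and 829 in the R98S clones. Every R98S clone lay above every WT clone. The mean rose from 375 ± 17.0 to 792 ± 113 (SD, n = 3 each), a ratio of 2.11 and a change on the log2 scale of 1.07 (SE 0.147, adjusted p by limma = 0.00457). The call held in all 16 alternatives. The 30 nearest tested genes had a median shift of 0.32, and with it removed the value was 0.74. The second glutamate carrier, Slc25a18, was among the weak genes above.

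Slc25a40, a glutathione carrier on chromosome 5 (8422850 to 8454797, plus strand), moved the other way. It had 463, 422 and 682 normalized counts in the WT clones and 255, 232 and 279 in the R98S clones. All R98S clones lay below the lowest WT clone, and WT clone 36 stood above the other two. The mean was 522 ± 139 in WT and 255 ± 23.4 in R98S, a WT over R98S ratio of 2.05 and a change on the log2 scale of -1.003 (SE 0.203, adjusted p by limma = 0.0176). The call held in all 16 alternatives. Its paralog Slc25a39, which carries glutathione as well, had a log2 fold change of 0.07.

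Slc25a38 supplies the matrix with glycine for heme synthesis and is given for this reason beside the serine and glycine pathway of the study. It lies on chromosome 9 (120110374 to 120124504, plus strand). Its normalized counts were 438, 363 and 309 in the WT clones and 571, 456 and 600.4 in the R98S clones. The groups did not overlap, though the highest WT and the lowest R98S clone were close. The mean was 370.2 ± 64.8 in WT and 543 ± 76.3 in R98S, with a log2 fold change of 0.56 (SE 0.180, adjusted p by limma = 0.0740). Leaving out WT clone 29 or 36 raised the adjusted p to 0.176 or 0.159, leaving out R98S clone 11 or 35 to 0.192 or 0.187, and dropping the filter on low counts to 0.106, so the call was lost in 5 of 16 alternatives.

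The other carriers of this group were not past the threshold. Slc25a29, a carrier of basic amino acids, came closest, with 62.5, 44.1 and 33.0 normalized counts in the WT clones and 70.4, 90.8 and 76.8 in the R98S clones. These values did not overlap, and the log2 fold change was 0.80 (SE 0.291, adjusted p by limma = 0.103). It passed in 5 of 16 alternatives, one of them without WT clone 28 (1.03, adjusted p = 0.0975). Slc25a15, the ornithine carrier of the urea cycle, had 0.44 (adjusted p = 0.168), or 0.61 (adjusted p = 0.0814) without R98S clone 35. Its neighbours on chromosome 8 had a median shift of -0.25, and with that removed Slc25a15 had 0.69 (adjusted p = 0.0246). The aspartate/glutamate carriers Slc25a12 (aralar) and Slc25a13 (citrin) had 0.37 and -0.01, the carnitine carrier Slc25a20 -0.05, the branched-chain amino acid carrier Slc25a44 0.09 and the weakly expressed ornithine carrier Slc25a2 -0.17.

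Among the 5 tested carriers of di- and tricarboxylates with their uncoupling-like relatives, 1 fell and 4 did not pass the test. The called share was 20%, beside 23.9% of all genes tested, and the median log2 fold change was -0.03. Slc25a1 is the citrate carrier, which exports citrate for cytosolic acetyl-CoA and lipid synthesis, on chromosome 16 (17925223 to 17928219, minus strand). It had 3626, 4008 and 3722 normalized counts in the WT clones and 2656, 2642 and 2525 in the R98S clones. The groups were well apart and the R98S clones close together. The mean was 3785 ± 199 in WT and 2608 ± 72.2 in R98S, a WT over R98S ratio of 1.45 and a change on the log2 scale of -0.54 (SE 0.095, adjusted p by limma = 0.0113). The call held in all 16 alternatives, with values of -0.57 to -0.50. The dicarboxylate carrier Slc25a10 had 0.14, and the uncoupling-like Slc25a14 and Slc25a30 had 0.01 and -0.03.

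Among the 5 tested carriers of adenine nucleotides and phosphate, Slc25a23 fell and 4 did not pass, with a median log2 fold change of 0.00. The called share was 20%, beside 23.9% of all genes tested. Slc25a23, a calcium-regulated exchanger of ATP-Mg for phosphate, lies on chromosome 17 (57043711 to 57059863, minus strand). It read 2762, 3000 and 3626 in the WT clones and 2694, 2206 and 1733 in the R98S clones. The groups did not overlap, but R98S clone 11 was close to WT clone 28. The mean was 3129 ± 446 in WT and 2211 ± 480 in R98S, with a log2 fold change of -0.52 (SE 0.176, adjusted p by limma = 0.0862). The call held in 6 of 16 alternatives and was lost without WT clone 28 (adjusted p = 0.128), 29 (0.165) or 36 (0.192), without R98S clone 13 (0.129) or 35 (0.204), by edgeR (0.110), and after removal of the median shift of -0.21 of its neighbours (0.213). Its relative Slc25a25 had 0.00. Slc25a23 shares 168 exonic bases with Gm17168, an antisense gene.

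Among the 6 tested members whose substrate is not settled, 2 rose and 4 did not pass. The called share was 33.3%, beside 23.9% of all genes called and 10.7% called higher. The median log2 fold change was -0.20, below 0 although both called members rose. Slc25a45, on chromosome 19 (5877808 to 5885878, plus strand), had 499, 646 and 520.4 normalized counts in the WT clones and 917, 773 and 1196 in the R98S clones. Every R98S clone was above every WT clone. The mean was 555 ± 79.4 in WT and 962 ± 215 in R98S, a ratio of 1.73 and a change on the log2 scale of 0.78 (SE 0.186, adjusted p by limma = 0.0294). Without WT clone 28 the value was 0.71 and the adjusted p 0.106, and the call held in the other 15 alternatives.

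Slc25a47, a carrier known mainly from liver, was present at a very low level on chromosome 12 (108836046 to 108856815, plus strand). It had 11.3, 7.52 and 13.0 normalized counts in the WT clones and 26.3, 19.4 and 31.5 in the R98S clones. The groups did not overlap. The mean was 10.6 ± 2.80 in WT and 25.7 ± 6.05 in R98S, with a log2 fold change of 1.21 (SE 0.377, adjusted p by limma = 0.0664). The call was lost without WT clone 28 (adjusted p = 0.147) or 29 (0.195), without R98S clone 11 (0.156) or 35 (0.172), without the filter (0.139) and by DESeq2 (0.154). Slc25a47 and Slc25a29 lie head to head, with 162 bases between their annotated ends. The other 4 members of this group, Slc25a34, Slc25a35, Slc25a43 and Slc25a53, had log2 fold changes of -0.06, -0.43, -0.72 and -0.34. Slc25a35 shares 1151 exonic bases, 31.3% of its exon length, with Rangrf on the opposite strand. How many of its few reads belong to Rangrf was not tested.

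**Figure D3:**
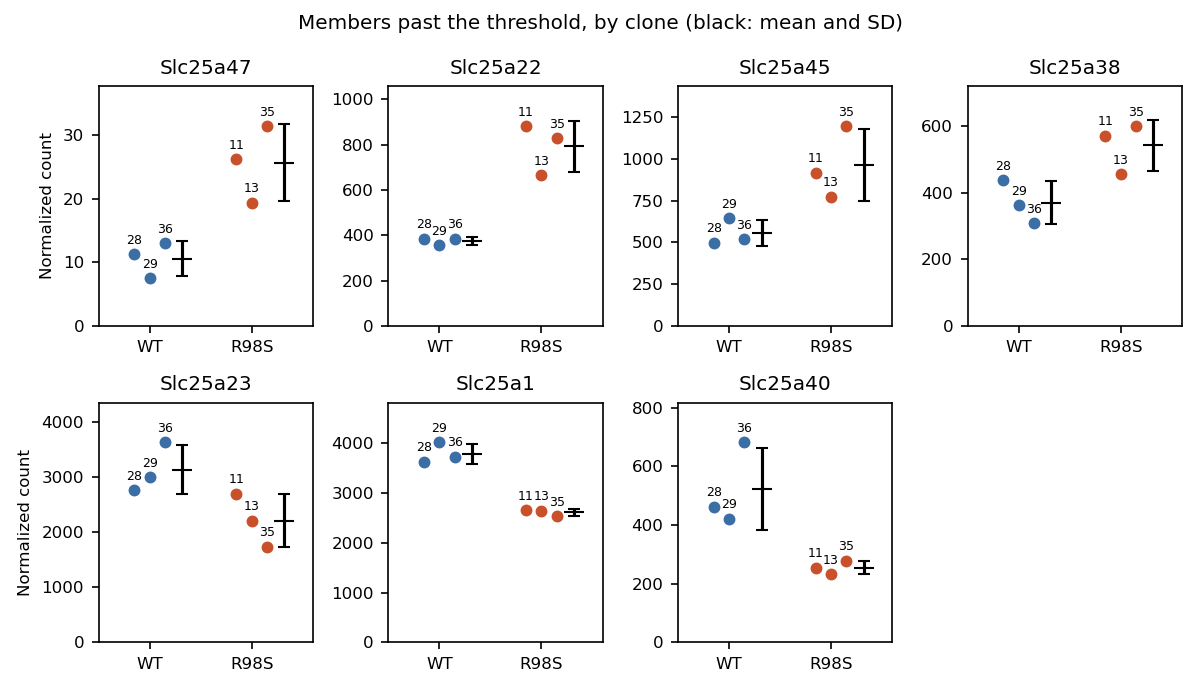
Normalized count in each clone for the 7 members with an adjusted p under 0.1, 1 panel per gene, with the group mean and SD beside the points and each axis starting at 0. The WT and R98S points do not overlap in any panel, and they come closest in the panels of Slc25a23 and Slc25a38.

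None of the 9 tested carriers of other nucleotides and cofactors passed the test, beside 23.9% of all genes called. Their median log2 fold change was -0.01. Slc25a32, which carries folate or FAD and is given for its place in one-carbon metabolism, had normalized counts of 800, 881 and 774 in the WT clones and 881, 797 and 983 in the R98S clones. The groups overlapped. The mean was 818 ± 56.1 in WT and 887 ± 92.8 in R98S, with a log2 fold change of 0.11 (SE 0.127, adjusted p by limma = 0.580, 95% interval -0.18 to 0.41).

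Slc25a16 and Slc25a42 were carriers of this group whose clones did not overlap although the test was not passed. Slc25a16, a carrier linked to coenzyme A, had 869, 934 and 858 in the WT clones and 685, 790.0 and 752 in the R98S clones (log2 fold change -0.26, adjusted p by limma = 0.173). Slc25a42, the coenzyme A carrier, had 326, 318 and 393 in the WT clones and 285, 308 and 231 in the R98S clones (-0.33, adjusted p = 0.227). Slc25a42 lies on chromosome 8, where its neighbours had a median shift of -0.37, and with that removed its value was 0.04. Slc25a17, the peroxisomal carrier of coenzyme A, FAD and NAD, the S-adenosylmethionine carrier Slc25a26, the pyrimidine nucleotide carriers Slc25a33 and Slc25a36 and the NAD carrier Slc25a51 had values of -0.01, -0.13, 0.16, -0.25 and 0.18. When R98S clone 13 was left out, Slc25a51 had 0.28 (adjusted p = 0.0768), and with the median shift of its neighbours, 0.36, removed it had -0.17 (adjusted p = 0.273).

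Both iron carriers, the mitoferrins, were expressed and neither passed the test. Slc25a28 (mitoferrin 2) had 1159, 1082 and 962 normalized counts in the WT clones and 835, 742 and 929.8 in the R98S clones, without overlap. Its log2 fold change was -0.36 (SE 0.134, adjusted p by limma = 0.111), and it passed without WT clone 36 (-0.43, adjusted p = 0.0941), by DESeq2 (adjusted p = 0.0973) and after removal of the regional shift (adjusted p = 0.0506). Slc25a37 (mitoferrin 1), which is known from erythroid cells, had a log2 fold change of 0.05. Slc25a46, a member of the outer membrane that acts in mitochondrial dynamics, had -0.03.

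Where a pair of members carries like substrates, the ratio of their levels per kilobase was taken in each clone, and 5 pairs were compared with exact two-sided permutation tests. With 3 clones against 3 the smallest possible p is 0.1. The ratios themselves depend on the merged exon lengths, which cancel out in the comparison of the groups. Slc25a40 over Slc25a39 was 0.0339, 0.0307 and 0.0574 in the WT clones and 0.0211, 0.0144 and 0.0210 in the R98S clones. This was the only pair of the 5 whose groups did not overlap (difference of the mean log2 ratios -1.07, exact p = 0.1, adjusted p = 0.375), and it uses the same values of Slc25a40 as above. Slc25a4 over Slc25a5 was 0.228, 0.255 and 0.240 in the WT clones and 0.171, 0.291 and 0.165 in the R98S clones (-0.26, exact p = 0.4, adjusted p = 0.4).

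Slc25a28 over Slc25a37, the ratio of the mitoferrins, was 1.07, 0.849 and 0.916 in the WT clones and 0.595, 0.661 and 0.909 in the R98S clones, which overlapped (-0.41, exact p = 0.2). For Slc25a12 over Slc25a13 the ratio was 0.594 to 0.664 in WT and 0.622 to 1.18 in R98S clones (0.38, exact p = 0.3), with R98S clone 13 the highest. For Slc25a36 over Slc25a33 it was 1.36 to 2.83 in WT and 1.25 to 1.40 in R98S clones (-0.41, exact p = 0.3), with WT clone 36 the highest. The adjusted p was 0.375 for each of these 3 pairs.

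**Figure D4:**
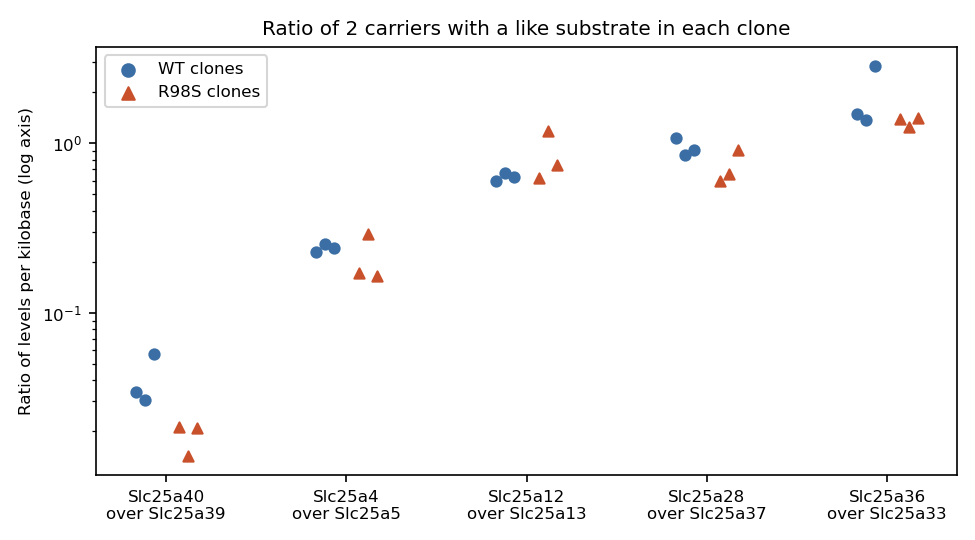
Ratio of the levels per kilobase of exon for 5 pairs of carriers with like substrates, 1 point per clone, on a log axis. The groups are apart only for Slc25a40 over Slc25a39, where the WT clones lie between 0.0307 and 0.0574 and the R98S clones between 0.0144 and 0.0211.

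The promoters of Slc25a22, Slc25a45, Slc25a40 and Slc25a1, the 4 members with the smallest adjusted p, are shown because the first pair rose and the second pair fell. Each line gives 250 bases before to 50 after the start of the gene as RefSeq lists it on GRCm38.p6, read 5′ to 3′ on the strand of the gene, at chr7:141437825-141438124 (minus) for Slc25a22, chr19:5877572-5877871 (plus) for Slc25a45, chr5:8422588-8422887 (plus) for Slc25a40 and chr16:17928170-17928469 (minus) for Slc25a1. RefSeq promoters were found for 36 of the 48 members, and of the starts listed for Slc25a22 the one nearest the annotated 5′ end was used. Capitals mark matches, on either strand, to the motifs named in the next paragraph.
Slc25a22: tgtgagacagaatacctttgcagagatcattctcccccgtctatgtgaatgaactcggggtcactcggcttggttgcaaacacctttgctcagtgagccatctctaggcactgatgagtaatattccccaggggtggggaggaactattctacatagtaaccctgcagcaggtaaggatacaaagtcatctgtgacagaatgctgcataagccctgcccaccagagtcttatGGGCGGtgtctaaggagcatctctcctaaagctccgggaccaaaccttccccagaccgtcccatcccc
Slc25a45: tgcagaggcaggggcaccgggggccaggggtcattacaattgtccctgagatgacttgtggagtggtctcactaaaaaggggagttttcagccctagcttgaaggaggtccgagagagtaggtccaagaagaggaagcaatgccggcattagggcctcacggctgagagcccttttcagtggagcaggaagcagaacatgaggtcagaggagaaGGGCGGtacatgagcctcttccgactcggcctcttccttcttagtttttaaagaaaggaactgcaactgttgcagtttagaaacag
Slc25a40: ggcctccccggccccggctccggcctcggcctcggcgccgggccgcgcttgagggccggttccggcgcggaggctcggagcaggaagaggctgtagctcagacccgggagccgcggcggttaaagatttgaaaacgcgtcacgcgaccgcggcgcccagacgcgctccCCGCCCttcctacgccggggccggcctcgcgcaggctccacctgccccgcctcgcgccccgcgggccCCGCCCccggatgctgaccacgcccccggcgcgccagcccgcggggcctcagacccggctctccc
Slc25a1: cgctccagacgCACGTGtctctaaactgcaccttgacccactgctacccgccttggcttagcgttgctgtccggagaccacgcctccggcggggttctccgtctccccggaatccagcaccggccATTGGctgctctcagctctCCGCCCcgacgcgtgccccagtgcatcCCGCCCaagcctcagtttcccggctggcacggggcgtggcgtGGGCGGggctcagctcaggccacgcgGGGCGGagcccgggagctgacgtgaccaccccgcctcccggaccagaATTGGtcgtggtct

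The 2 members that rose had promoters with 51.7% (Slc25a22) and 52.7% (Slc25a45) G and C and with 6 and 7 CG dinucleotides. The 2 that fell had 79.0% (Slc25a40) and 69.3% (Slc25a1) and 47 and 30 CG dinucleotides. The median was 60.7% and 17.5 over the 30 tested members with an entry, and 52.7% and 7.0 over all 32851 promoters. These sets are unlike, since the members are expressed genes with 1 start each. The 32851 promoters hold every listed start of every gene, expressed here or not. The contrast by direction rests on 2 genes each, and the other called members were left out of it. Whether these contrasts, and those of the motifs below, go with the direction of change or are particular to the family was not tested. The GC box GGGCGG was found in 27 of the 30 members (90.0%) and in 35.7% of all promoters, once in Slc25a22 and in Slc25a45, at 2 places in Slc25a40 and at 4 in Slc25a1. The CCAAT box (CCAAT) was in 53.3% of members and 37.4% of all promoters, and at 2 places in Slc25a1. The E-box CACGTG was in 16.7% of members and 7.15% of all promoters, and at 1 place in Slc25a1.

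The TATA box TATAAA, the NRF1 core GCGCATGCG and the composite ATF4 and CEBP motif TGATGNAA were in none of the 30 member promoters and in 13.6%, 1.75% and 3.97% of all promoters. The cAMP response element TGACGTCA was in 1 member and in 1.79% of all. Both strands were searched, no motif contains another, and a match is a description of the sequence only.

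The 3 lists of related genes were read the same way. Of the carriers without an Slc25 symbol, the uncoupling protein Ucp2 and the outer membrane homologues Mtch1 and Mtch2 were tested, with log2 fold changes of -0.20, -0.34 and 0.10 and limma adjusted p of 0.446, 0.199 and 0.606, while Ucp1 and Ucp3 had 3 reads or fewer in every library.

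Of 14 tested genes of the machinery that imports carriers, 3 (21.4%) were higher in R98S cells and none was lower. Of all genes 23.9% were called, 10.7% higher and 13.1% lower. The median log2 fold change of the list was 0.14. Tomm5, a small subunit of the outer membrane entry pore, had 2964, 2754 and 2449 normalized counts in the WT clones and 5279, 3713 and 4532 in the R98S clones. The groups did not overlap (0.72, SE 0.146, adjusted p by limma = 0.0179, called in all 16 alternatives). The genes around Tomm5 had a median shift of 0.33, and with it removed Tomm5 had 0.38 (adjusted p = 0.0902). Timm9 (0.55, adjusted p = 0.0566) and Timm10 (0.45, adjusted p = 0.0975) form the chaperone that guides carriers across the space between the membranes. Timm9 lost its call without WT clone 28 (adjusted p = 0.113) or 29 (0.174) and without R98S clone 11 (0.167) or 35 (0.133), and Timm10 without any clone but R98S clone 13 (0.135, 0.223 and 0.202 without WT clones 28, 29 and 36, 0.229 and 0.213 without R98S clones 11 and 35). Timm10 also lost it without the filter (0.163), without the intensity trend (0.105) and with the regional shift removed (0.222), and kept it in 8 of 16 alternatives. The count of 3 fell to 1 when WT clone 28 or 29 or R98S clone 11 or 35 was left out, and was 5 when R98S clone 13 was.

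Of 17 other tested transport genes of the mitochondrial membranes, 7 (41.2%) passed the test, 2 higher and 5 lower, beside 23.9% of all genes called, 10.7% higher and 13.1% lower, with a median log2 fold change of -0.06. Mcu, the pore of the calcium uniporter, had 2015, 2335 and 2060 normalized counts in the WT clones and 1086, 1377 and 1304 in the R98S clones. All R98S clones lay below all WT clones (-0.77, SE 0.127, adjusted p by limma = 0.00877, called in all 16 alternatives). The regulator of the uniporter Micu3 (-0.77, adjusted p = 0.0454) was lower as well, while Micu2 (-0.20, adjusted p = 0.286) and Mcur1 (0.01, adjusted p = 0.914) did not pass. The genes around Micu3 had a median shift of -0.47, and with it removed Micu3 had -0.30 (adjusted p = 0.300). The call of Micu3 was also lost when WT clone 28 (adjusted p = 0.140) or 29 (0.121) was left out.

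Vdac1, the main channel of the outer membrane, had 7586, 7001 and 6502 in the WT clones and 4422, 5985 and 4407 in the R98S clones (-0.52, adjusted p by limma = 0.0439), without overlap, whereas Vdac2 (0.12, adjusted p = 0.565) and Vdac3 (-0.33, adjusted p = 0.166) did not pass. Sfxn3, a sideroflexin, was lower (-0.89, adjusted p = 0.0660), although its groups overlapped. Mpc2, a subunit of the pyruvate carrier, had 687, 720.0 and 656 in the WT clones and 1227, 1188 and 825 in the R98S clones, without overlap (0.63, adjusted p = 0.0417), and its partner Mpc1 did not pass (0.05, adjusted p = 0.890). Letm1, an inner membrane protein of cation exchange, was higher (0.40, adjusted p = 0.0826). The adjusted p of Mpc2 was 0.122 when WT clone 28 and 0.131 when R98S clone 11 was left out. For WT clones 28 and 29 and R98S clones 11 and 35 in turn it was 0.152, 0.115, 0.136 and 0.119 for Vdac1, 0.164, 0.182, 0.198 and 0.183 for Sfxn3, and 0.236, 0.118, 0.194 and 0.203 for Letm1, which reached 0.164 when WT clone 36 was left out. The fit without the intensity trend gave 0.116 for Sfxn3 and 0.124 for Letm1, and the fit without the filter 0.137 for Letm1. Of these 7 genes, Mcu alone kept its call in every alternative, and the count of 7 was 1 when WT clone 28 was left out and 2 when WT clone 29 or R98S clone 11 was.

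**Figure D5:**
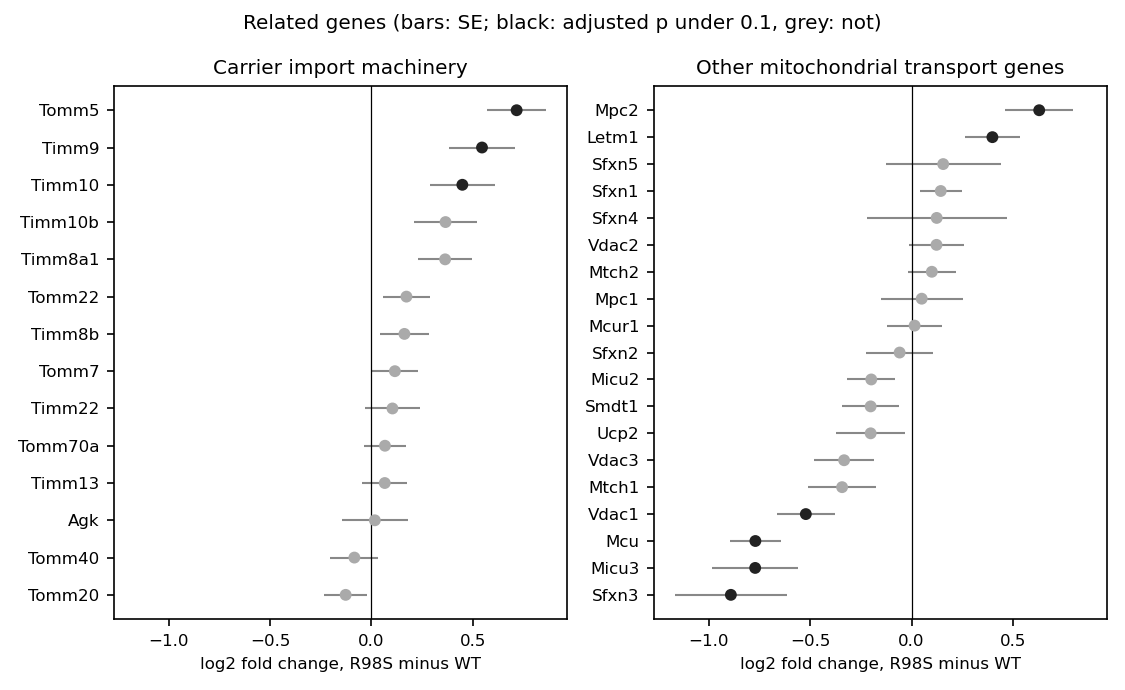
Log2 fold change of R98S over WT for tested genes of the carrier import machinery (left) and of other mitochondrial transport, including Ucp2, Mtch1 and Mtch2 (right), with the limma SE as bars and black points for an adjusted p under 0.1. Tomm5 leads on the left at 0.72, and Mcu, Micu3, Vdac1 and Sfxn3 are the black points below 0 on the right.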

How the data were processed

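The authors removed reads of ribosomal and transfer RNA with Bowtie2, aligned the rest to mm10 with TopHat, kept primary alignments and counted reads on exons. HTSeq is among the tools in the submitters' processing notes. The gene annotation and the strand setting of the counting are not given in the sources used here. Each deposited value is a signal, namely the read count of a gene divided by the size factor of the library from DESeq2. The filter of the authors on mapping quality can lower genes with near-identical copies, such as processed pseudogenes. In each library 100% of values above 0 came out whole (within 0.001) when divided by 1 step, which gave the reads. On these, edgeR called 2746 and DESeq2 3105 of all genes.

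R98S was compared with WT in R 4.3.3 by limma 3.58.1 (log2 of the normalized count + 1, intensity trend) for 11550 genes with a mean of at least 10. The test was two-sided, with Benjamini-Hochberg adjustment over all genes and a threshold of 0.1. Pair ratios were tested with scipy 1.17.1. Coordinates and exon lengths came from GENCODE on GRCm38, and promoters from RefSeq.

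Alternatives were pseudocounts of 0.5 and 5, no filter or a minimum of 50, equal totals or upper quartiles, no trend, a threshold of 0.05, each clone left out, edgeR 4.0.16 and DESeq2 1.42.0 on the recovered reads, and a fit after subtracting, per library, the median deviation of the 30 tested genes closest on the chromosome. The 16 alternatives counted for a single gene leave out the threshold of 0.05, at which Slc25a38, Slc25a23 and Slc25a47 were not called. Related lists were put through the same alternatives after the data were seen. The members and lists were chosen with earlier results of these data known. Values in every clone are given for members past the threshold, the 5 highest per kilobase, Slc25a32 and Slc25a38. They are also given for tested members whose groups did not overlap and for Slc25a18, which was not tested. The other members are given by group, and of the related lists those past the threshold are named. Related genes named beside these were chosen after their values were seen. Some genes counted in these lists are not reported here by name or value.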

Additional observations from a re-analysis of the deposited data

How the results depend on the processing

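No paired analysis was possible because the clone numbers of the WT and R98S groups differ. Of 620 values of single members under an alternative, 547 kept their direction and their side of the threshold, 22 lost a call, 12 gained one and 39 changed sign. None of those that changed sign belonged to a called member.

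With 7 members called, 4 of them higher, the counts fell to 4 and 2 at a threshold of 0.05. Without the filter on low counts 5 members were called, 2 higher and 3 lower. Of these, 4 were among the 7, and the other was a weak or silent member left out of the main fit. Leaving out 1 clone gave 4 to 8 called members and 2 to 5 higher ones, with 4 and 2 without WT clone 29 and 2 higher without R98S clone 11. Over all genes, 2755 were called, and leaving out WT clone 28 gave 1322, WT clone 29 gave 1457, R98S clone 11 gave 1560 and R98S clone 13 gave 3213. Carriers without the Slc25 symbol had 0 calls, 2 with the regional shift removed and 0 to 1 with a clone left out. The import machinery had 1 call at the threshold of 0.05 and 1 to 5 with a clone left out, and the other transport genes 4 and 1 to 7. The cause of these changes was not tested.

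Signs changed for values near 0 and for some that were not. Among the latter, Slc25a42, Slc25a4, Slc25a51, Slc25a2 and Slc25a33 had reported log2 fold changes of -0.33, -0.21, 0.18, -0.17 and 0.16. Slc25a13 was 0.013 with equal totals, 0.033 with equal upper quartiles, 0.007 by edgeR, 0.002 by DESeq2 and 0.122 with the regional shift removed. Slc25a17 was 0.007, 0.027 and 0.001 with equal totals, equal upper quartiles and the regional shift removed. With equal upper quartiles Slc25a30 was 0.010 and Slc25a46 0.008. With the regional shift removed Slc25a46 was 0.096, Slc25a25 -0.101, Slc25a39 -0.067, Slc25a4 0.234, Slc25a42 0.041 and Slc25a51 -0.175. With 1 clone left out, Slc25a13 ran from -0.106 to 0.083, Slc25a14 from -0.076 to 0.059, Slc25a17 from -0.062 to 0.015, Slc25a2 from -0.426 to 0.008, Slc25a20 from -0.148 to 0.113, Slc25a25 from -0.172 to 0.146, Slc25a3 from -0.027 to 0.056, Slc25a30 from -0.088 to 0.021, Slc25a33 from -0.103 to 0.320, Slc25a34 from -0.182 to 0.096, Slc25a37 from -0.077 to 0.151, Slc25a39 from -0.048 to 0.162, Slc25a44 from -0.013 to 0.148 and Slc25a5 from -0.015 to 0.098.

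With equal upper quartiles 52.6% of all called genes were higher in R98S, against 45% in the values reported. Libraries held 21786776 reads counted on genes or more, and Slc25a2, Slc25a34, Slc25a35 and Slc25a47 rest on at most 34 reads in any library.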
